A study of Mus musculus with 46 samples.

Results

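Mouse induced pluripotent stem cells (iPSC) of the lines called iPSC1 and iPSC2 were compared in 12 of the 46 RNA-seq samples of the series. All 7 samples whose labels name iPSC1 and all 5 whose labels name iPSC2 were taken, whatever their gene expression. The cells were made from mouse embryonic fibroblasts (MEF) with retroviruses for Oct4 (the Pou5f1 gene) and either native Nanog (NanogWT) or NanogBiD, a fusion of Nanog with the part of SS18 that binds the chromatin remodeller BRG1, which the labels call NanogN70. iPSC1 comprised NanogBiD samples 4, 8 and 9 and NanogWT samples 1, 1-2, 2 and 3, and iPSC2 comprised NanogBiD samples 1, 2 and 3 and NanogWT samples 5 and 6. According to the column headings, iPSC1 NanogWT 1-2 and NanogWT 2 were at passage 6, the other 5 iPSC1 samples at passage 5, and every iPSC2 sample at passage 2. Line and passage therefore cannot be told apart, and iPSC1 below means the later-passage line. For reference, MEF samples 1 and 2 (passage 2) and 1 mouse embryonic stem cell sample (OG2-mES, passage 20) are given. The fibroblasts came from E13.5 embryos of either sex from OG2 males and 129 females, and the iPSC grew without feeder cells in N2B27 medium with 2i and LIF, as the methods of the study state. Each line holds samples of both combinations, which received different retroviruses, so a line here is a set of samples and not 1 clone. Which embryos the samples came from is not given in the sources used here. Nor do they say that samples of the same line and combination were separate cultures or clones. The number shared by NanogWT 1 and 1-2 may mark 1 clone. The p-values therefore measure the spread between these samples, which may be technical.

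Oct4 and Nanog are transcription factors at the core of the network that keeps embryonic stem cells pluripotent. In 2i and LIF the cells hold a naive state that resembles the inner cell mass of the blastocyst, with Zfp42 (Rex1) among its classical markers. During reprogramming, fibroblast genes for collagens and other matrix proteins are silenced while this network is switched on, and established lines can still differ from each other in genetic background, culture history and epigenetic state.

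The clearest differences between the lines included genes whose transcripts have a near-identical copy elsewhere in the genome, and 1 such pair is shown here because its members differ at so few bases. BC002163 is annotated as a processed pseudogene at chr16:42955631-42955949 (mm10, plus strand). Ndufs5, at chr4:123712710-123718202 (mm10, minus strand, gene extent), encodes a subunit of respiratory complex I. Over the 319 aligned bases, beginning at the ATG of Ndufs5 and read from the GENCODE vM21 transcripts, 2 bases differed. The first 180 bases hold both and are printed, with the differing bases in capitals.
BC002163: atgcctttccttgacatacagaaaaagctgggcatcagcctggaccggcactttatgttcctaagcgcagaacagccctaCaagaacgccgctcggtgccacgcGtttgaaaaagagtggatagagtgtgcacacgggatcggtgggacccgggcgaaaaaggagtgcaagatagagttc
Ndufs5: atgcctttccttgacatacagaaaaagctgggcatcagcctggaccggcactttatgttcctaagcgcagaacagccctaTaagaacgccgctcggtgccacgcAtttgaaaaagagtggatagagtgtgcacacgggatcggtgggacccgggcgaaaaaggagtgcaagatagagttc

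The values are FPKM (fragments mapped to a transcript, scaled by its length and by the total mapped in the library), summed over the transcripts of a gene. Defining pluripotency genes were high in both lines: Pou5f1 ranged from 261 to 376 FPKM in iPSC1 and from 315 to 358 in iPSC2, and Nanog from 269 to 439 and from 258 to 376. In bulk samples, fewer cells of a type and less RNA per cell cannot be told apart. Markers of fibroblasts set some samples apart. The summed level of the fibroblast list (34 of 36 genes in the table) was 418 FPKM in NanogBiD iPSC1 4, 559.1 in NanogBiD iPSC1 8, 3437 in NanogBiD iPSC1 9, 632.4 in NanogWT iPSC1 1 and 1312 in NanogWT iPSC1 3, all of passage 5. At passage 6 it was 275.5 in NanogWT iPSC1 1-2 and 341.6 in NanogWT iPSC1 2, within or just below the 296.7 to 348.4 of iPSC2 and close to the 295.2 of mES, against 14110 and 15290 in MEF. iPSC1 9 thus stood at 23.4% of the MEF mean and iPSC1 3 at 8.92%. Of the defining markers, Col1a1 reached 931 FPKM in iPSC1 9 and 285 in iPSC1 3 but 0.738 in iPSC1 2, Acta2 ranged from 0 to 255 in iPSC1 and from 0 to 4.80 in iPSC2, and Dcn reached at most 1.82 in the 12 samples. Sex-linked genes also varied. The sum of 7 Y-linked genes was 0 to 31.5 FPKM in iPSC1 and 50.1 to 67.9 in iPSC2, except 0.0643 in NanogWT iPSC2 5. The X-linked level, as the median log2 difference from mES over X-linked genes minus that over autosomal genes, was 0.504 to 0.878 in 5 iPSC1 samples but 0.117 in NanogBiD iPSC1 4 and 0.107 in NanogWT iPSC1 2, which lay inside the 0.0140 to 0.170 of 4 iPSC2 samples, while NanogWT iPSC2 5 was at 0.736. X- and Y-linked genes were therefore left out of the comparison, and the part that fibroblast signal, X dosage or passage has in the results below was not tested.

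**Figure D1:**
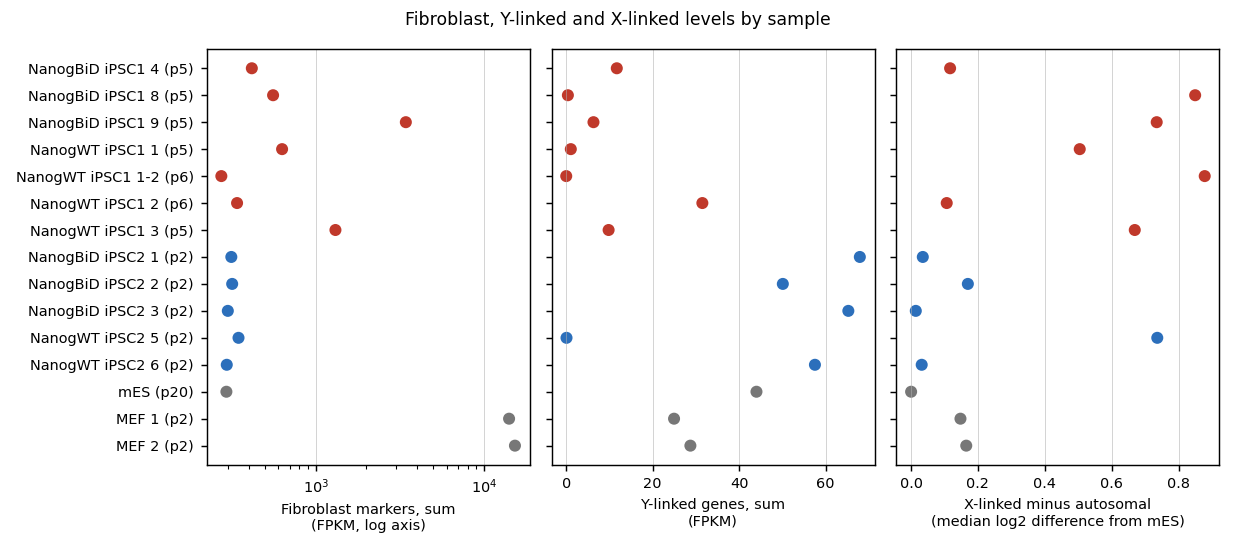
Each point is 1 sample (vertical axis), with iPSC1 in red, iPSC2 in blue and references in grey, placed by the summed FPKM of the fibroblast list (log scale), the summed FPKM of Y-linked genes, and the median log2 difference from mES of X-linked minus autosomal genes. The 5 passage 5 samples of iPSC1 lie at 418 to 3437 FPKM for the fibroblast list, all above the iPSC2 samples, and NanogWT iPSC2 5 lies apart from its line for the sex-linked genes.

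Tested were the 11989 of 35976 genes that reached 1 FPKM in 2 or more of the 12 samples, on log2(FPKM + 1) with limma and the combination as covariate. Differences are iPSC1 minus iPSC2 on this scale, where the change of low genes comes out too small, adjusted p-values are limma's with Benjamini-Hochberg adjustment, and a gene was called at an adjusted p under 0.05 and at least 2-fold. Called were 111 genes, 0.926% of those tested: 62 higher in iPSC1 (0.517%) and 49 lower (0.409%). The samples of the lines did not overlap for 41 of the 49 lower and 33 of the 62 higher genes. Over all tested genes 4.75% did not overlap, 1.97% with iPSC1 higher and 2.79% with iPSC1 lower. All 111 had the same sign in both combinations. The keeping of signs, here and in fits without some samples, is nearly fixed because the genes were called on these same samples. In MEF, 28 of the 62 higher genes were at least 2-fold higher in MEF than in mES (13.1% of all tested genes were), and 20 of the 62 were under 1 FPKM in both MEF samples, while 0 of the 49 lower genes were 2-fold higher in MEF and 30 were under 1 FPKM there. Of all 11989 tested genes, 1790 were under 1 FPKM in both MEF samples. With iPSC1 9 and 3 left out, 23 of the higher and 31 of the lower calls held, all with their sign. With the Y-linked level as covariate, 18 of the higher and 29 of the lower calls held, and with the fibroblast level 19 and 27. With the 5 passage 5 samples left out, 3 and 9 held. Only 2 iPSC1 samples then remained, NanogWT 1-2 and 2, so this line difference came from NanogWT samples alone. Without 1 sample the count was 65 (NanogBiD iPSC2 1) to 206 (NanogWT iPSC1 2), and the balance of directions moved with the processing, to 48 higher and 54 lower after quantile normalization, 130 and 70 as TPM, 160 and 72 with a pseudocount of 0.1, and 353 and 64 with array weights. Calls held in each of the 12 fits without 1 sample for 17 of the higher and 28 of the lower genes.

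Rps18, which encodes a protein of the small ribosomal subunit, differed most. Its level was lowest at 0.0843, in the median 0.384 and highest at 1.44 FPKM in iPSC1, and 445, 551, 390, 394 and 448 FPKM in NanogBiD iPSC2 1, 2 and 3 and NanogWT iPSC2 5 and 6, the order in which iPSC2 values are given throughout. Every iPSC1 sample was near 0, and every iPSC2 sample was near the 500 FPKM of mES. The difference was -8.24 (SE 0.192, adjusted p = 4.28e-11). MEF gave 18.4 and 154 FPKM, and the 31 time-course libraries, in a separately made table, 103 to 491. Processed copies of Rps18 of up to 99.3% identity lie at other places of the genome, so how reads were shared among them is uncertain. Rps18 itself lies at chr17:33951998-33955665 (mm10).

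In most copy pairs the called gene took a smaller share of the pair in iPSC1, while the partner genes did not all move alike. BC002163 was at 0.931 (lowest), 2.00 (median) and 3.12 FPKM (highest) in iPSC1 and at 26.1, 27.1, 18.9, 19.4 and 28.9 in iPSC2, a difference of -3.12 (SE 0.221, adjusted p = 9.13e-06). Its partner Ndufs5 was at 60.9 to 79.2 FPKM in iPSC1 and at 37.1, 43.6, 34.0, 47.7 and 38.7 in iPSC2, a difference of 0.77 in the opposite direction (SE 0.0973, adjusted p = 0.00127). The pair together were at 72.2 ± 7.9 FPKM (SD, n = 7) in iPSC1 and 64.3 ± 6.9 (SD, n = 5) in iPSC2, of which BC002163 took 1.41% to 4.56% in iPSC1 and 28.9% to 42.8% in iPSC2. The samples of the lines did not overlap for either gene, and the sums did.

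Gm9855 has a near-identical copy in Tdg, the thymine DNA glycosylase that removes oxidised methylcytosine. Gm9855 was at 2.01, 2.90 and 3.45 FPKM (lowest, median, highest) in iPSC1 and at 21.5, 17.9, 16.5, 18 and 15.8 in iPSC2 (difference -2.28, SE 0.112, adjusted p = 2.43e-07), or 8.45% to 16.9% of the pair against 47.1% to 54.7%. Tdg differed by 0.33 (adjusted p = 0.112). Gm4737, the copy of the S-adenosylhomocysteine hydrolase Ahcy, was at 39.4 to 49.3 FPKM against 91.1 to 115, and took 22.7% to 25.6% of its pair against 46.3% to 49.6%, while Ahcy differed by 0.31 (adjusted p = 0.0605). For Gm2423 and the 14-3-3 gene Ywhaq the shares were 17.1% to 25.2% against 29.1% to 31.3%, and Ywhaq differed by -0.32 (adjusted p = 0.0566). Gm5801 took 0.832% to 3.67% of its sum with the ubiquitin-conjugating enzyme gene Ube2j2 against 10.3% to 17.8%, and Ube2j2 differed by -0.0116 (adjusted p = 0.943). In each of these pairs the share of the copy did not overlap between the lines. The pair sums did not overlap for Gm9855 and Tdg (20.4 to 32.2 against 33.0 to 39.3 FPKM) or Gm2423 and Ywhaq (143 to 190 against 204 to 252). They did for Gm4737 and Ahcy (165 to 202 against 191 to 248) and Gm5801 and Ube2j2 (21.1 to 25.2 against 24.2 to 30.9). A sum of FPKM is not a count of reads, because each transcript is scaled by its own length. Among called genes matched to transcripts, 9 of 42 lower genes (21.4%) and 1 of 61 higher genes (1.64%) had such a copy, against 8.55% of all 11421 tested genes that matched. That higher gene, Trim43a, went the other way and took 66.6% to 100% of its sum with Trim43b in iPSC1 against 22.7% to 75.5%. Values of all genes in such pairs depend on how the authors' counting placed shared reads.

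**Figure D2:**
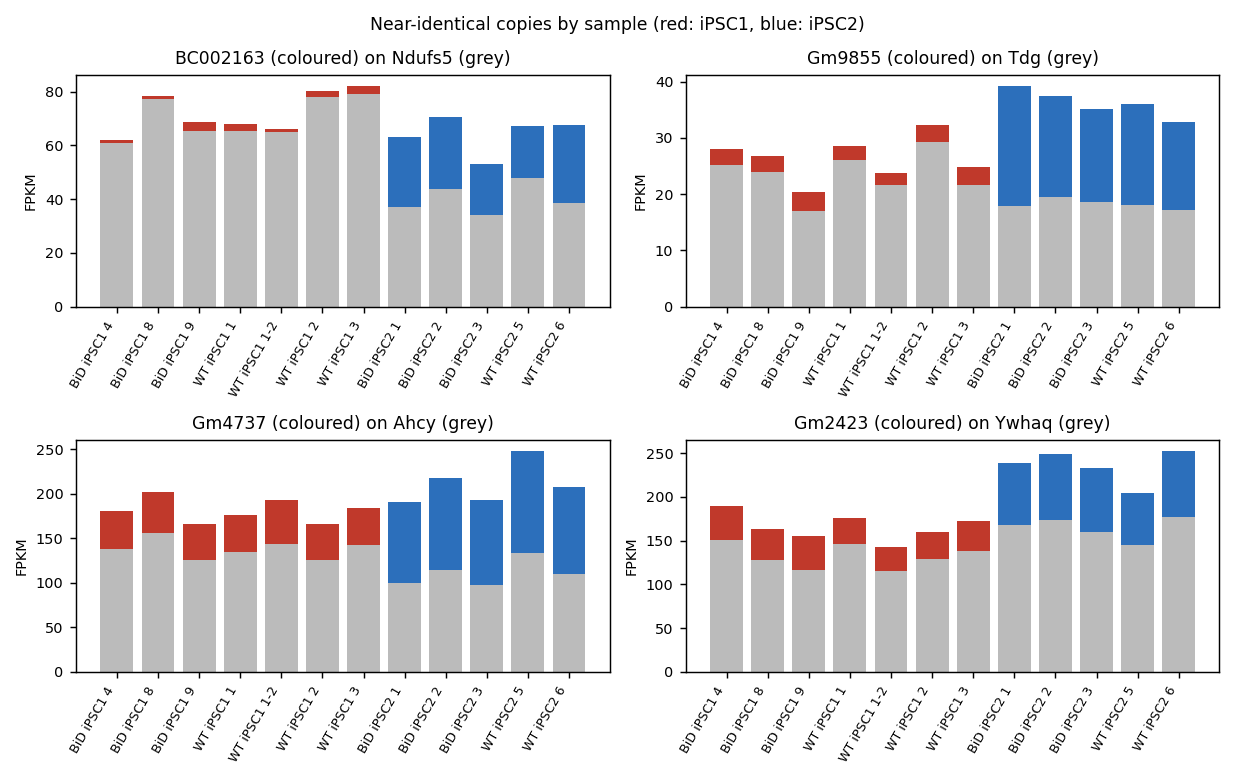
Stacked bars give FPKM per sample for a near-identical copy (red in iPSC1, blue in iPSC2) on top of its parent gene (grey), 1 panel per pair, with a linear axis from 0. The copy is a thin slice in each iPSC1 bar of BC002163 and Ndufs5, 1.41% to 4.56% of the pair, and 28.9% to 42.8% in iPSC2.

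Genes for which no such copy was found were also lower in every iPSC1 sample. Wdr46, a nucleolar protein needed for ribosome production, was at 1.38, 1.74 and 2.39 FPKM (lowest, median, highest) in iPSC1 and at 12.2, 11.6, 13.9, 9.80 and 11.7 in iPSC2 (difference -2.16, SE 0.112, adjusted p = 3.36e-07). Fxyd6, a regulator of the sodium pump, was at 5.81, 10.2 and 12.5 FPKM in iPSC1 and at 46.4, 46.8, 44.5, 41.1 and 36.8 in iPSC2 (-2.06, SE 0.171, adjusted p = 3.66e-05). The lowest iPSC2 value of each gene was above 2 times the highest iPSC1 value. Rida, which clears reactive imines formed in amino acid metabolism, was at 1.66 to 3.80 against 6.46 to 9.24 FPKM (-1.41, adjusted p = 0.000654). C030039L03Rik, which was not matched to a transcript, was at 0.106 to 0.478 against 2.71 to 3.63 FPKM (-1.65, adjusted p = 2.42e-05). The axonemal motor gene Dnah8 was at 1.08 to 4.54 against 7.07 to 10.6 FPKM (-1.53, adjusted p = 0.00402).

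Genes of pluripotent cells and the early embryo were among the lower calls. Zfp42 (Rex1) was at 34.6, 49.5 and 185 FPKM in iPSC1 and at 165, 169, 156, 162 and 179 in iPSC2, a difference of -1.44 (SE 0.31, adjusted p = 0.0234). Zfp42 is 1 of the lower genes with a near-identical copy (Zfp42-ps1, 98.1% identity over 266 bases), so its values depend on how shared reads were placed. The value of 185 belonged to NanogWT iPSC1 2, above all iPSC2 samples, and the other 6 iPSC1 samples were at most at 77.2. The call was lost in 6 of the 12 fits without 1 sample, with adjusted p-values of 0.0503 to 0.0638 (without NanogBiD iPSC1 8, NanogBiD iPSC1 9, NanogWT iPSC2 6 or any 1 of the NanogBiD iPSC2 samples). Triml2, a TRIM-like gene on the same chromosome (chr8:43180463-43193884, beside Zfp42 at chr8:43295067-43307009, mm10), was at 3.28, 9.02 and 23.4 FPKM in iPSC1 and at 33.7, 31.4, 26.1, 24.2 and 28.5 in iPSC2 (-1.72, SE 0.33, adjusted p = 0.0139). NanogWT iPSC1 2 was again the highest of its line, but the lines did not overlap. Khdc3, a component of the subcortical maternal complex of oocytes and early embryos, was at 1.81, 5.10 and 10.4 FPKM in iPSC1 and at 16.2, 20.1, 21.3, 27.5 and 20.1 in iPSC2 (-1.81, SE 0.253, adjusted p = 0.00247). Fam25c was at 10.4, 23.7 and 33.0 FPKM in iPSC1 and at 50.2, 60.1, 40.5, 139 and 59.0 in iPSC2 (-1.71, SE 0.325, adjusted p = 0.0137). For both, every iPSC1 sample was below every iPSC2 sample, and mES lay on the iPSC2 side at 32.4 FPKM for Khdc3 and 73.7 for Fam25c.

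Most of the naive pluripotency list did not follow Zfp42. Of its 23 tested genes, only Zfp42 was lower and only Dppa2 higher at an adjusted p under 0.05 (2.73% and 2.38% of all tested genes were), and the median difference of the list was 0.0083. Without 1 sample, 0 to 2 genes of the list were lower and 0 to 1 higher. Esrrb was at 118 to 236 FPKM in iPSC1 and 165 to 197 in iPSC2, Sox2 at 187 to 314 and 205 to 242, and Tfcp2l1 at 94.8 to 130 and 117 to 131. Pou5f1 differed by -0.06 (adjusted p = 0.681) and Nanog by 0.14 (adjusted p = 0.513), and both signs turned in some alternative fits. Ss18, whose protein piece is fused to Nanog in NanogBiD, was at 44.2 to 54.5 against 35.2 to 41.1 FPKM (0.36, adjusted p = 0.016) with no overlap. Its adjusted p stayed under 0.05 in 11 of the 12 fits without 1 sample and reached at most 0.0597. The values of Pou5f1 and Nanog can include transcripts of the vectors, and those of Ss18 can in NanogBiD samples only.

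Among the 12 genes with the largest increases and no overlap, 6 had a MEF value above all iPSC1 samples, several of them secreted or adhesion proteins. Serpine2, an inhibitor of extracellular serine proteases, was at 6.91, 8.23 and 40.6 FPKM in iPSC1 and at 1.94, 1.67, 2.36, 2.31 and 1.01 in iPSC2 (2.14, SE 0.368, adjusted p = 0.0072). Mmp2, a gelatinase, was at 3.34, 3.84 and 24.3 FPKM in iPSC1 and at 0.416 to 1.68 in iPSC2 (1.81, SE 0.371, adjusted p = 0.0186). NanogBiD iPSC1 9, which had the highest fibroblast sum, was highest for both, yet each iPSC1 sample exceeded each iPSC2 sample. The call of Mmp2 was lost without NanogWT iPSC2 6 (adjusted p = 0.0567) or without NanogBiD iPSC2 1 (adjusted p = 0.0517). Sorbs3, the focal adhesion adaptor vinexin, was at 1.55, 5.00 and 6.52 against 0.328 to 0.851 FPKM (1.77, SE 0.262, adjusted p = 0.00329). Id2, an inhibitor of basic helix-loop-helix factors, was at 9.60, 17.2 and 26.0 against 3.20 to 8.39 FPKM (1.58, SE 0.244, adjusted p = 0.00388). Anxa8, an annexin, was at 5.68 to 19.4 against 1.45 to 3.56 FPKM (1.58, adjusted p = 0.00746), and Vopp1 differed by 1.35 (adjusted p = 0.0327), a call lost in 7 of the 12 fits without 1 sample.

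The other 6 had no MEF value above the iPSC1 range. Perp, a desmosome-associated target of p53, was at 15.9, 26.1 and 43.1 FPKM in iPSC1 and at 4.28, 4.73, 4.23, 11.2 and 4.04 in iPSC2 (2.07, SE 0.293, adjusted p = 0.00267), against 5.08 and 3.34 in MEF and 8.13 in mES. Piwil2, which acts in the piRNA pathway of the male germ line, was at 3.13, 5.05 and 9.13 FPKM in iPSC1 and at 1.00, 1.10, 0.977, 3.01 and 0.921 in iPSC2 (1.47, SE 0.26, adjusted p = 0.00856). NanogWT iPSC2 5 was the highest iPSC2 sample for both genes and remained below all iPSC1 samples. Dmrtb1, a regulator of spermatogonia, was at 0.858 to 9.00 against 0.146 to 0.857 FPKM (1.53, adjusted p = 0.0327), so that the lines nearly met, and its call was lost in 7 of the 12 fits without 1 sample. Gm11543 differed by 1.29 (adjusted p = 0.00746). Aldh1a2, the main retinoic acid synthesizing enzyme of the embryo, was at 2.40, 4.53 and 6.26 against 0.647 to 1.51 FPKM (1.33, SE 0.203, adjusted p = 0.0038). The secreted glycoprotein gene Stc2, a target of the stress factor ATF4, was at 3.08 to 7.69 against 0.991 to 2.08 FPKM (1.32, adjusted p = 0.0038).

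**Figure D3:**
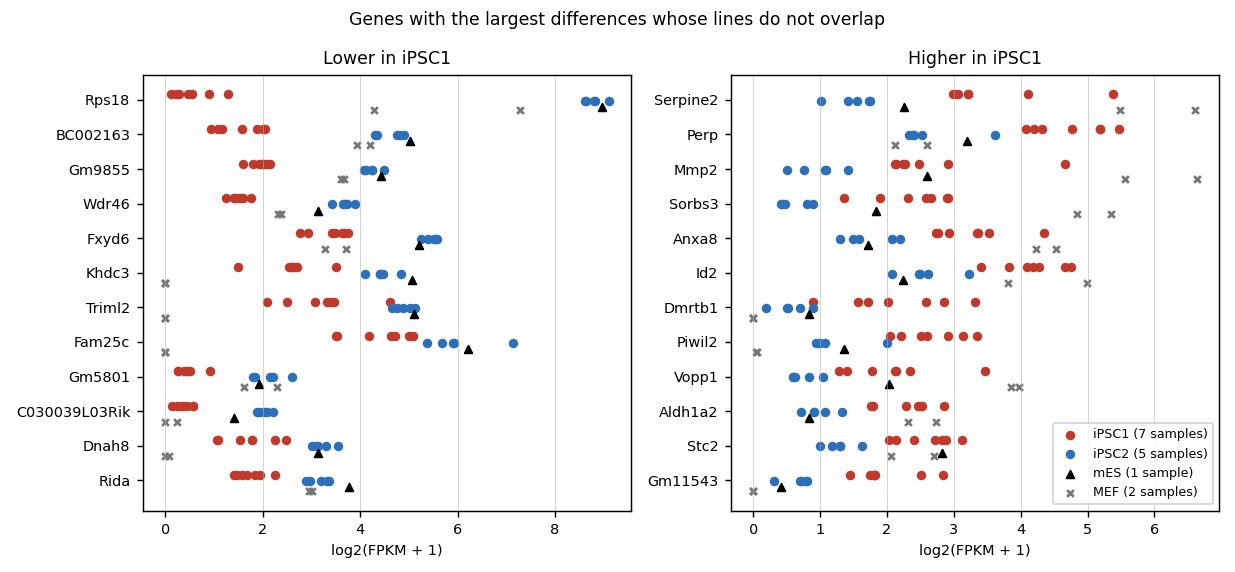
Dots give log2(FPKM + 1) per sample for the 12 called genes with the largest differences in each direction whose lines did not overlap (iPSC1 red, iPSC2 blue, mES triangle, MEF crosses), lower genes and higher genes in separate panels. Rps18 lies near 0 in all 7 iPSC1 samples and at 390 to 551 FPKM in iPSC2, and for Serpine2 and Mmp2 the MEF samples lie above both lines.

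Genes called with larger differences but with overlap, named after their values were seen, showed how far iPSC1 samples spread. Fbln2, the matrix protein fibulin-2, was at 2.77, 20.8 and 190 FPKM in iPSC1 and 0.578 to 4.57 in iPSC2 (3.28, SE 0.806, adjusted p = 0.0379), with the top value in iPSC1 9. Its call was lost in 8 of the 12 fits without 1 sample (adjusted p up to 0.106). Obox6, an oocyte-specific homeobox gene at 0 in both MEF samples, was at 2.01, 24.2 and 38.6 against 0.24 to 2.93 FPKM (2.79, SE 0.57, adjusted p = 0.0183), and Stk33, a kinase gene also at 0 there, at 1.26, 14.2 and 19.8 against 0.466 to 2.77 (2.19, adjusted p = 0.0282). NanogWT iPSC1 2 was lowest in iPSC1 for all 3 genes and lay inside the iPSC2 range. The call of Obox6 was lost without NanogBiD iPSC2 1 (adjusted p = 0.0517) and that of Stk33 in 8 of the 12 fits.

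The cholesterol list had the most lower genes of the 26 lists. Cells make cholesterol through the mevalonate pathway, whose genes are under shared control of SREBP factors. Of its 20 tested genes, 10 were lower in iPSC1 at an adjusted p under 0.05 and 0 higher. Over all tested genes 2.73% were lower and 2.38% higher. The 26 lists were chosen with earlier results of these data known, and genes under shared control are not independent. The counts are therefore a description. In the list 19 of 20 differences were negative, and the median was -0.50 against -0.03 over all tested genes. None reached 2-fold. Sqle, the squalene epoxidase, was at 33.5, 35.9 and 39.8 FPKM in iPSC1 and at 58.7, 55.7, 54.2, 50.4 and 59.3 in iPSC2 (-0.595, SE 0.0711, adjusted p = 0.000801). Msmo1, a sterol demethylating oxidase, was at 18.9, 24.3 and 29.2 in iPSC1 and at 35.8, 37.5, 38.7, 42.4 and 38.9 in iPSC2 (-0.74, SE 0.0948, adjusted p = 0.00134). Both genes left a gap between the lines in every sample. Dhcr7, the last step of synthesis, was at 5.99, 8.82 and 10.9 FPKM in iPSC1 and at 14.5, 16.7, 15.9, 16.2 and 18.4 in iPSC2 (-0.86, SE 0.113, adjusted p = 0.00151). Its samples did not overlap between the lines either, and these 3 genes kept an adjusted p under 0.05 in each fit without 1 sample. Also lower were Fdft1, Fdps, Idi1, Insig1, Lss and Pmvk. The count was 6 with iPSC1 9 and 3 left out. With the passage 5 samples left out, which left NanogWT samples alone to set the line difference, it was 0. There 20 of 20 differences were negative with a median of -0.59.

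**Figure D4:**
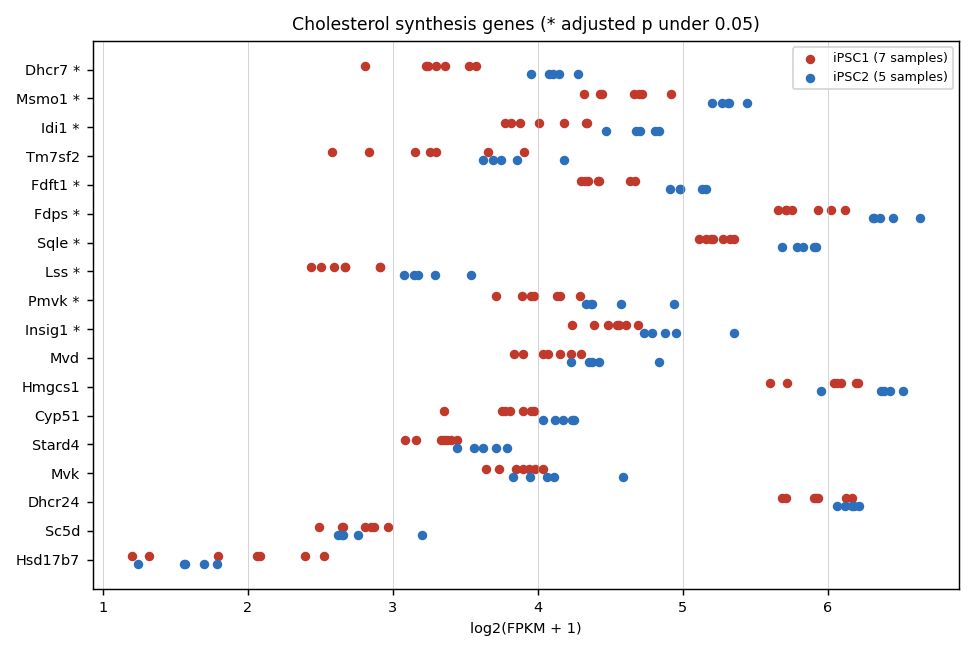
Dots give log2(FPKM + 1) per sample for 18 tested genes of the cholesterol list, iPSC1 in red and iPSC2 in blue, with a star at an adjusted p under 0.05. The 9 starred genes are lower in iPSC1, as for Sqle at 33.5 to 39.8 FPKM against 50.4 to 59.3.

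Cell type lists had few genes that passed, and their counts moved with single samples. Over all tested genes 2.38% passed as higher and 2.73% as lower. All 27 tested genes of the fibroblast list had positive differences with a median of 1.4, and only Mmp2 passed. Without the passage 5 samples, where the line difference came from NanogWT samples alone, 19 of 27 differences were negative. The median was then -0.2 and 0 passed. With the fibroblast sum as a covariate 8 were negative with a median of 0.16. That sum is made of the genes of this list, so smaller differences follow from the adjustment itself. Without NanogWT iPSC1 2 alone 8 genes passed, without NanogBiD iPSC1 4 3 did, and without NanogWT iPSC2 6 or NanogBiD iPSC2 1 0 did. Without NanogWT 1-2, 2 and 5, a choice made after seeing the data, 14 did. It drops the lowest fibroblast sums of iPSC1 (275.5 and 341.6 FPKM) and the highest of iPSC2 (348.4), which favours a larger count. In the primitive endoderm list 3 of 10 tested genes were higher: Col4a1, Col4a2 and Lamb1, all basement membrane genes that fibroblasts express too. Col4a1 was at 4.94, 28.1 and 75.9 FPKM in iPSC1 and 3.29 to 6.24 in iPSC2 (2.13, adjusted p = 0.0244), against 178 and 244 in MEF, and Col4a2 differed by 2.18 (adjusted p = 0.0307). With the fibroblast sum as a covariate they stood at adjusted p = 0.134 and 0.163, and they lost the call in 5 and 8 of the 12 fits without 1 sample. The part that fibroblast signal has in their difference was not tested. The list had 0 higher genes without any 1 of the NanogBiD iPSC2 samples or without iPSC1 9 and 3. The defining factors Gata4, Gata6, Sox17 and Sox7 were at most at 2.39 FPKM in any of the 12 samples. Among genes of the 2-cell stage, 17 of 18 differences were positive with a median of 0.44, and Tmem92 passed. Without NanogWT iPSC2 5 the median was 0.17, 7 of 18 were negative and 0 passed, and the list had 0 passing genes in 9 of the 12 fits without 1 sample. Zscan4c was at 1.09 to 3.81 FPKM in iPSC1 and 0.0141 to 3.21 in iPSC2. In the germline list Piwil2 alone of 14 passed, and 4 genes did without NanogWT iPSC1 2 and 2 without NanogWT iPSC2 5. No gene passed with all 12 samples in the lists for primed cells (12 tested, median -0.026), trophoblast (9, median -0.097) or neural cells (6, median -0.17). Without NanogWT iPSC1 2, however, 1 primed gene was lower and 2 trophoblast genes were higher, without NanogBiD iPSC1 4 1 primed gene was lower, and without NanogWT iPSC2 5 1 trophoblast gene was higher.

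Lists of signalling and stress response contained scattered higher genes. Of the immediate early genes 3 of 16 were higher (Jun, Ier3 and Dusp1), of ATF4 targets 4 of 21 (Ddit4, Cebpb, Stc2 and Ddit3), and of glycolysis and hypoxia genes 4 of 28 (P4ha2, Slc2a1, Bnip3 and P4ha1) with Hk1 lower, where 2.38% of all tested genes were higher. Without 1 sample these counts ran from 1 to 5 (immediate early), 1 to 4 (ATF4) and 0 to 4 (glycolysis and hypoxia). They were lowest for immediate early genes without NanogWT iPSC2 6 or any 1 of the NanogBiD iPSC2 samples, for ATF4 targets without NanogWT iPSC2 6, NanogBiD iPSC2 2 or NanogBiD iPSC2 3, and for glycolysis and hypoxia without NanogBiD iPSC2 1 or 2. Jun, an AP-1 subunit, was at 4.29 to 13.1 against 1.70 to 4.33 FPKM (adjusted p = 0.0251), and the collagen prolyl hydroxylase P4ha2 at 2.41 to 8.80 against 0.874 to 2.35 (1.13, adjusted p = 0.0215). Ddit4, an inhibitor of mTORC1, was at 16.6 to 50.8 against 11.2 to 22.1 FPKM (1.04, adjusted p = 0.0466). Of these 3 genes only P4ha2 did not overlap, and of the 12 fits without 1 sample the call was lost in 5 for Jun (adjusted p up to 0.0805), 4 for P4ha2 (up to 0.0696) and 9 for Ddit4 (up to 0.132). Cebpb, a transcription factor of stress and adipogenesis, had adjusted p = 0.0465 and lost the call in 9 of these fits (up to 0.138). Phlda1, 1 of 2 higher genes of 16 in the ERK list, had 0.0395 and lost it in 10 (up to 0.112). Bst2 (tetherin), the only one of 10 interferon genes to pass, had 0.0379 and lost it in 9 (up to 0.123). Each of these genes had its highest adjusted p without NanogWT iPSC2 6. In the p53 list 2 of 19 were higher (Perp and Plk2), and 5 were without NanogWT iPSC1 2.

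Chromatin, imprinting and cell cycle lists had 1 or 2 genes that passed, or 0, where 5.10% of all tested genes passed in either direction. In the DNA methylation list of 14, Gadd45b was higher (0.97, adjusted p = 0.0222) and Uhrf1, which guides maintenance methylation, was lower at 102 to 195 FPKM in iPSC1 (-0.66, adjusted p = 0.0236). Of 32 imprinted genes outside the Dlk1-Meg3 cluster, Gnas alone passed, at 103 to 225 against 78.1 to 101 FPKM (0.77, adjusted p = 0.0112) with no overlap, and 0 of 5 genes of that cluster passed. Of the imprinted genes, 3 were higher without NanogWT iPSC1 2 or without NanogWT iPSC2 5. Of 25 cell cycle genes, the inhibitor locus Cdkn2a was higher at 19.9 to 41.7 against 12.9 to 19.7 FPKM (0.72, adjusted p = 0.0284) and Mcm2 lower (-0.35, adjusted p = 0.0499), and 20 of the 25 differences were negative. Chaf1a, a chromatin assembly factor, was the 1 lower gene of 20 in retroelement silencing (-0.40, adjusted p = 0.0407), where 17 of 20 differences were negative and 6 genes were lower without NanogBiD iPSC1 4. In the Wnt list of 12 the median was -0.50 and Tcf7 passed (-0.44, adjusted p = 0.0255), with 5 lower genes without NanogBiD iPSC1 4, and in the LIF and Stat3 list of 15 Jak1 passed (0.47, adjusted p = 0.0355). Of these single passing genes, Gnas kept an adjusted p under 0.05 in every fit without 1 sample, while Mcm2 did in 2 of 12, Chaf1a and Jak1 in 4, Cdkn2a in 6, Uhrf1 and Tcf7 in 7 and Gadd45b in 8. With all 12 samples no gene passed in the lists of mitochondrial genes (13 tested), protocadherins (4, with 1 lower without NanogBiD iPSC1 4) or histones (23).

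Some of the lower genes were neighbours on a chromosome. Windows of 10 neighbouring tested genes with at least 5 at an adjusted p under 0.05 in 1 direction were sought, a rule chosen after seeing the data and given as a description. The windows that met it joined into 2 stretches, whose counts are high in part because the rule selects for them. At chr17:33875664-34038403 (mm10), close to the MHC, 8 of 16 tested genes were lower and 0 higher: Kifc1, Tapbp, Rgl2, Pfdn6, Wdr46, Rps18, Slc39a7 and Rxrb. Over all 16 the median was -0.58 and 14 were negative, and of all tested genes 2.73% were lower at an adjusted p under 0.05. The mitotic kinesin Kifc1 was at 9.76 to 14.6 against 22.5 to 28.4 FPKM (-1.0, adjusted p = 0.000192) and has a near-identical copy in Kifc5b. Rgl2, a Ral exchange factor, was at 0.545 to 1.23 against 1.81 to 3.38 FPKM (-1.05, adjusted p = 0.00259). The lines did not overlap for either gene. Of the 12 fits without 1 sample, the call held in 6 for Kifc1 and in 10 for Rgl2, with adjusted p under 0.05 in all 12. Slc39a7, a zinc transporter, differed by -0.60 (adjusted p = 0.00515), the retinoid X receptor Rxrb by -0.74 (adjusted p = 0.0147) and the peptide-loading protein Tapbp by -0.55 (adjusted p = 0.0435), of which Slc39a7 alone kept an adjusted p under 0.05 in each fit without 1 sample.

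At chr4:129516104-129850003 (mm10) 6 of 11 tested genes were higher and 0 lower: Hdac1, Eif3i, Txlna, Kpna6, Khdrbs1 and Ptp4a2, with a median of 0.43. Of all tested genes 2.38% were higher. Hdac1, a histone deacetylase of the NuRD and Sin3 complexes, was at 126, 183 and 213 FPKM in iPSC1 and at 111, 109, 94.5, 85.9 and 110 in iPSC2 (0.76, SE 0.128, adjusted p = 0.00589), with no overlap. With iPSC1 9 and 3 left out, 6 genes of the chromosome 17 stretch and 5 of the chromosome 4 stretch passed. With the passage 5 samples left out, which left NanogWT samples alone to set the line difference, 2 and 0 did.

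**Figure D5:**
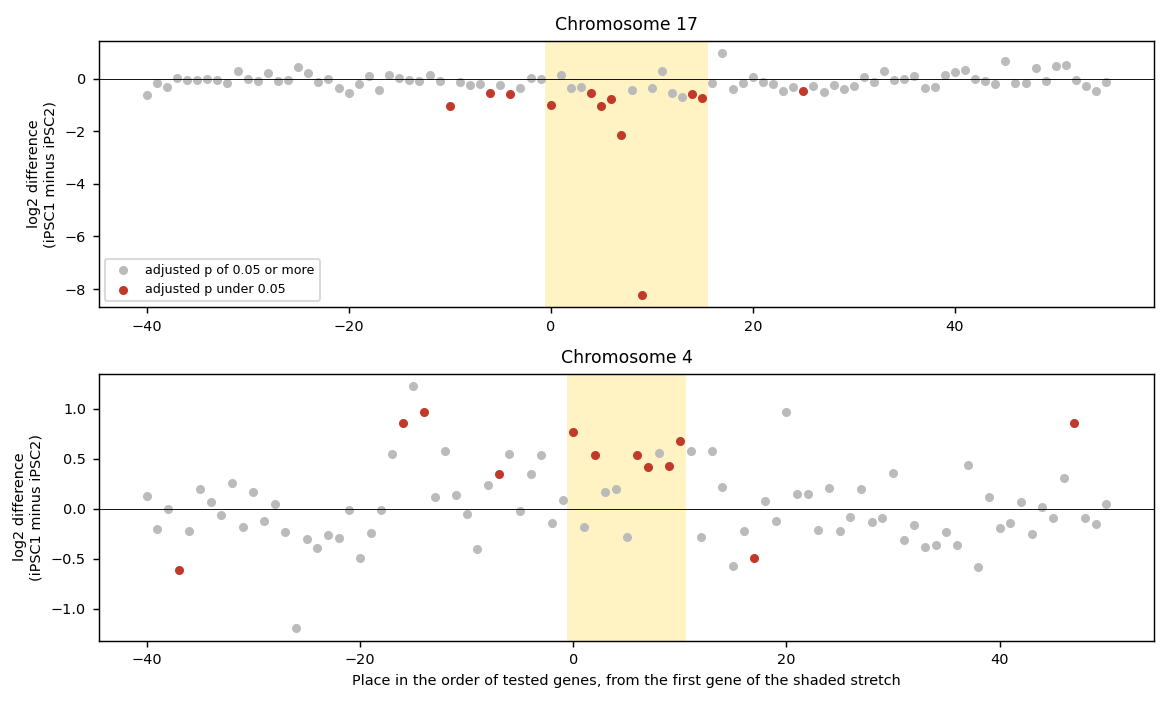
Points give the log2 difference (iPSC1 minus iPSC2) of tested genes against their place in the order along chromosomes 17 and 4, coloured where the adjusted p is under 0.05, with the stretch shaded. In the chromosome 17 stretch 14 of 16 points are below 0, and in the chromosome 4 stretch 9 of 11 are above 0.

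Each combination was also compared by itself within the same model. NanogBiD iPSC1 and iPSC2 differed at 32 genes (0.267%; 8 higher and 24 lower) and NanogWT iPSC1 and iPSC2 at 24 genes (0.200%; 7 higher and 17 lower). The test of the difference between these contrasts called 0 genes in limma, with 334 at an unadjusted p under 0.05 and a smallest adjusted p of 0.956. Both counts moved with single samples, to 10 without NanogBiD iPSC2 3 and 385 without NanogBiD iPSC1 4 for NanogBiD, and to 7 without NanogWT iPSC2 5 and 45 without NanogWT iPSC2 6 for NanogWT. A count of 0 does not show that the combinations act alike.

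The likeness of each sample to mES and MEF was compared with exact two-sided permutation tests that exchanged lines within a combination (300 arrangements, smallest possible p = 0.00333), adjusted over 5 measures. The correlation with mES across tested genes was 0.9276 ± 0.021 (SD, n = 7) in iPSC1 and 0.9486 ± 0.0031 (SD, n = 5) in iPSC2, a difference within combinations of -0.0223 (exact permutation p = 0.0133, adjusted 0.05). The correlation with MEF was 0.7237 ± 0.048 (SD, n = 7) and 0.6827 ± 0.015 (SD, n = 5) (exact permutation p = 0.107, adjusted 0.133). The number of genes at 1 FPKM or more was 11204 to 11721 in iPSC1 and 10837 to 11326 in iPSC2 (difference 364, exact permutation p = 0.02, adjusted 0.05). No measure went under an adjusted 0.05 with all 12 samples, and the adjusted p of the correlation with mES ran from 0.0333 (without NanogBiD iPSC1 4 or 8) to 0.15 (without NanogWT iPSC2 6) in the exact permutation tests without 1 sample. With iPSC1 9 and 3 left out, the difference in correlation with mES was -0.01101 (exact permutation, adjusted p = 0.1). Total FPKM was 396871 to 435908 per sample, and differed between the lines by 346 (exact permutation p = 0.977, n = 7 and 5).

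The genes that varied most among samples of the same line and combination were Rps28, Col1a1, Thbs1, Lox and Col1a2. The last 4 are fibroblast matrix genes, and Thbs1 ranged from 0.647 to 418 FPKM in iPSC1 and from 0.959 to 27.8 in iPSC2. Rps28, a ribosomal protein gene just outside the chromosome 17 stretch, ranged from 0 to 704 FPKM in iPSC1. It also ranged from 0.164 to 242 FPKM in the 31 time-course libraries. Its difference between the lines was -0.358 and did not pass an adjusted p of 0.05.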

How the data were processed

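RNA-seq of 12 iPSC samples was compared, with 2 MEF samples and 1 mES sample as references. Per the study's methods and the submitters' processing notes, the authors trimmed reads with Trim Galore 0.6.4, aligned them to mm10 with HISAT2 2.2.1 and quantified transcripts with StringTie 2.2.1. The deposited table gives FPKM for 106520 transcripts in each sample, as the authors computed them. The annotation used and any use of strand are not given in the sources used here, so overlapping genes are uncertain, and sequencing depth is unknown. Notes differ on the library kit.

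Groups came from the sample labels and passages from the column headings. Transcripts were summed by symbol (35976 genes), genes that reached 1 FPKM in 2 or more of 12 samples were kept, and 467 X- or Y-linked genes that passed were left out. FPKM are not counts, so no count model was used. log2(FPKM + 1) was fitted with limma 3.58.1 (intensity trend) in R 4.3.3 with line and combination as terms, and with a mean per line and combination for the contrasts within combinations. On simulated data the line contrast recovered 194 of 200 genes changed by 2 on the log2 scale with 6 others called, and the interaction 158 with 7 others (11989 genes each). The simulated noise was independent between genes and samples. It held no effect shared by many genes of a sample, such as fibroblast signal, so these rates need not hold for the real samples. The rest was done in Python 3.11.15 (pandas 2.3.3, numpy 2.4.6, scipy 1.17.1 and, for plots, matplotlib 3.10.9).

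Near-identical copies were sought with BLAST+ 2.17.0 in GENCODE vM21 transcripts (at least 97% identity over at least 200 bases and 50% of the shorter transcript, at another locus). Gene positions are those of RefSeq GRCm38.p6, which is mm10, or else of GENCODE vM21. The 26 gene lists, the members and the tests were chosen with earlier results of these data known. Named were the 12 largest non-overlapping calls in each direction, the reprogramming factors, list members that passed, the largest interactions and the 5 genes of largest spread within groups. Pair and neighbour genes, Fbln2, Obox6 and Stk33 were added after seeing values. Some genes are not reported here, though counts over lists include them. Alternatives changed the pseudocount, filter, scaling, fold limit, covariates, samples, genes, variance model and summing of transcripts.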

Additional observations from a re-analysis of the deposited data

Results flagged for a closer look

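In each line, samples were examined for a highest or lowest value far from the rest, measured as the gap to its nearest neighbour divided by the range of the group. Of 136 groups examined, 14 passed the 95% critical value, and chance passes about 1 in 20 of independent groups. These groups share samples, and many of the genes were named because they differed in these data. The rate is thus only a rough guide. NanogWT iPSC2 5 accounted for 8 of the 14. It had the highest iPSC2 value of the correlation with MEF (0.886 of the range), Perp (0.854), Piwil2 (0.878), Fbln2 (0.78), Ddit4 (0.766) and Mcm2 (0.879), and the lowest of Gm2423 (0.735) and Gm11543 (0.783). The same sample lay apart from its line in the Y-linked sum and in the X-linked level. NanogBiD iPSC1 9, the sample with the highest fibroblast sum, accounted for 4, with the highest Mmp2 (0.69) and Jak1 (0.582) and the lowest Pou5f1 (0.639) and Rxrb (0.676) of iPSC1. NanogWT iPSC1 1 had the highest Gm5801 of iPSC1 (0.615), and NanogBiD iPSC2 1 the lowest Cdkn2a of iPSC2 (0.759).

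Among the 462 X-linked genes left out of the comparison, the median difference, iPSC1 minus iPSC2, was 0.315 on the log2 scale, against -0.0298 over all tested genes, and 403 were positive. Ap1s2, Otud6a, Tspan7 and 4933402E13Rik would have been called in the fit that kept them. Tspan7, a membrane tetraspanin, was at 2.13 to 6.99 FPKM in iPSC1 and 0.287 to 1.30 in iPSC2, with NanogWT iPSC2 5 at 0.54, inside its line. Ap1s2, an adaptor subunit of clathrin-coated vesicles, was at 18 to 38.0 FPKM in iPSC1 and 9.38 to 23.7 in iPSC2, with NanogWT iPSC2 5 highest of its line.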

How the results depend on the processing

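Every one of the 111 calls kept its sign in each fit without 1 sample, which calling on these same samples makes likely, and the number of calls varied. It was 232 with a pseudocount of 0.1, 66 without a filter, 70 at 5 FPKM, 200 as TPM and 612 without the fold limit. It was 61 with the fibroblast level and 81 with the Y-linked level as covariate. It was 60 without iPSC1 9 and 3, 212 without passage 6 and 417 with array weights. In NanogBiD samples alone it was 26, and in NanogWT samples alone 8. In alternatives chosen after seeing the data it was 14 without passage 5 (no NanogBiD iPSC1 sample left), 336 without NanogWT 1-2, 2 and 5, and 52 among genes under 1 FPKM in MEF. Without 1 sample it was 65 to 206. The samples that moved it over 1.5 times were NanogWT iPSC1 2 (206), NanogBiD iPSC1 4 (195), NanogWT iPSC2 5 (177), NanogWT iPSC2 6, NanogBiD iPSC1 9 and NanogBiD iPSC2 3 (72 each), NanogBiD iPSC2 2 (70) and NanogBiD iPSC2 1 (65). The contrast within NanogBiD gave 50 without the fold limit, 16 without iPSC1 9 and 3, 52 without passage 6, 72 without NanogWT 1-2, 2 and 5, 20 among genes low in MEF, and 10 to 385 without 1 sample. The contrast within NanogWT gave 14 without a filter, 12 without passage 6, 6 without NanogWT 1-2, 2 and 5, 11 with the highest transcript, 7 among genes low in MEF, and 7 to 45 without 1 sample. The interaction gave 0 to 1.

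With iPSC1 9 and 3 left out, the difference in correlation with mES was smaller, at -0.01101 (exact permutation, adjusted p = 0.1). The distance to mES then differed by 0.03429 (adjusted p = 0.1833). The difference in correlation with mES passed an adjusted 0.05 at 5 FPKM (-0.03264), with X- and Y-linked genes kept (-0.02365) and as Spearman correlation (-0.02421). So did the distance to mES (0.06185 and 0.06268, first 2 alternatives) and the number of genes with X- and Y-linked genes kept (311.6). Without 1 sample an adjusted 0.05 was also passed by the correlation (NanogBiD iPSC1 4 or 8, NanogWT iPSC1 2), the distance (NanogBiD iPSC1 8) and the number of genes (NanogBiD iPSC1 8, NanogWT iPSC1 2). These 3 differences ranged from -0.02713 to -0.01363, 0.03942 to 0.07349 and 261.2 to 466.8, the correlation with MEF from 0.02434 to 0.0524, and total FPKM from -4032 to 4231, its sign turning to -3854, -383.5, -1751 and -3278 in 4 more of these fits. The difference of Pou5f1 turned to 0.05798 (fibroblast covariate), 0.01781 (without iPSC1 9 and 3), 0.004819 (without passage 5) and 0.006142 (without NanogBiD iPSC1 9, the upper end of -0.09824 to 0.006142 over the fits without 1 sample), and that of Nanog to -0.06979 (Y-linked covariate) and -0.0205 (without passage 5). The causes were not tested. No paired analysis was possible because the lines share no sample number within a combination. Depth is unknown, so no limit of detection is given.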

Other observations

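Other called genes, which fall outside the rule for named genes and were chosen after their values were seen, are given here as FPKM. Among abundant genes, Ly6e, a GPI-anchored surface protein, was at 219 to 346 in iPSC1 and 125 to 151 in iPSC2 (adjusted p = 0.000187), and Mfge8, a milk fat globule protein that bridges apoptotic cells and phagocytes, at 95.9 to 222 and 69.4 to 85.0 (adjusted p = 0.0152). Ly6k, of the same surface protein family and also on chromosome 15, was at 0.903 to 3.51 and 0 to 0.611 (adjusted p = 0.0137). Ptp4a3, a phosphatase, was at 20.1 to 35.1 and 9.07 to 13.6 (adjusted p = 0.000581). None of these 4 overlapped between the lines.

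Genes known from differentiated tissues were also called at low levels. Apob, an apolipoprotein made by liver and intestine, was at 1.73 to 6.29 in iPSC1 and 0.706 to 1.27 in iPSC2 (adjusted p = 0.00943), with mES at 0.077. The homeobox gene Msx2 was at 3.77 to 6.85 and 1.22 to 2.67 (adjusted p = 0.00327). Both sets of samples were separate. The transcriptional co-regulator gene Cited4 was at 3.80 to 28.4 and 2.06 to 11.1 (adjusted p = 0.0395), and Trim43a, an early embryonic gene with a near-identical copy in Trim43b, at 0.252 to 9.63 and 0.115 to 0.582 (adjusted p = 0.0395), each with overlap.

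Among lower genes, Anxa4, an annexin, was at 4.25 to 7.70 in iPSC1 and 11.8 to 14.5 in iPSC2 (adjusted p = 0.000563). Ogg1, the glycosylase that removes 8-oxoguanine from DNA, was at 2.88 to 5.35 and 6.39 to 13.9 (adjusted p = 0.00379). The neurexin family gene Cntnap2 was at 0.403 to 0.882 and 1.92 to 2.75 (adjusted p = 0.000719), and Trim26, on chromosome 17 but outside the stretch described there, at 1.46 to 2.51 and 4.52 to 5.86 (adjusted p = 0.00134). The lines did not overlap for any of these 4 genes.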
